A study of Homo sapiens with 2 samples.

Results

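Peaks of acetylated lysine 27 of histone H3 (H3K27ac) at tRNA genes were compared in 2 libraries of the human erythroid leukaemia cell line F36P. A peak was taken when it overlapped a nuclear tRNA gene record of RefSeq or lay within 1 kb of one, on chromosomes 1 to 22, X and Y, where 443 such records are listed. The rule found 135 of 28832 deposited peaks, of which 88 of 19671 were in the library called ERG and 47 of 9161 in that called Vector. The rule used position only and no measured value.

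The ERG cells were transduced with the retroviral plasmid MSCV-PIG-AM-ERG and are labelled as overexpressing ERG, a transcription factor of the ETS family. The Vector cells were transduced with the empty plasmid MSCV-PIG and have the genotype label WT. Both groups then grew for 4 days in puromycin (1 µg/ml) to select transduced cells, and the series asks how ERG holds back erythroid differentiation. Each group is 1 library from 1 cell line, so that ERG cells and Vector cells below stand for these single libraries. The meaning of AM was not established, and the level of ERG in the cells was not analysed here.

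Transfer RNA brings amino acids to the ribosome, and its genes are transcribed by RNA polymerase III (Pol III) from a promoter that lies inside the gene. The factor TFIIIC binds an A box and a B box within the transcribed sequence, and TFIIIB then places the polymerase at the start. Active tRNA genes are known to lie in open chromatin, with flanking nucleosomes that carry marks also found at active promoters of RNA polymerase II, H3K27ac among them. Each amino acid is served by many gene copies. In a name such as TRH-GTG1-9, the letters give the amino acid and the anticodon, the next number the mature sequence and the last number the copy, so that TRH-GTG1-3 and TRH-GTG1-9 encode the same histidine tRNA.

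With 1 library per group there is no replicate check and no test, so every difference given here is between these 2 libraries. Intervals are exact 95% intervals. Beside a count of 0, the share it allows is 3 counts of the total, a rule apart from these intervals, and both cover counting error only. The number of fragments at each peak's summit was recovered from the authors' fold and −log10 p-value. It came out whole for all 19671 ERG-library peaks and all 9161 Vector-library peaks, within a relative error of 0.0001. The lowest local background, at which MACS2 falls back on the average of the genome, was 2.31 fragments in ERG cells and 1.60 in Vector cells, a ratio of 1.44 that was used as the relative depth. Peaks covered 15 Mb in ERG cells and 5.30 Mb in Vector cells. Of 12 erythroid markers, 7 had a peak at a gene end in both libraries, among them TAL1 (211 fragments in ERG cells and 89 in Vector cells) and KLF1 (72 in ERG cells and 46 in Vector cells). At HBG2 the order was the opposite, with 37 fragments in ERG cells and 48 in Vector cells. ALAS2 had one in ERG cells alone, and HBA1, HBA2, HBG1 and SLC4A1 had none in either. Of 4 markers of other tissues (ALB, SYN1, COL1A1 and EPCAM), 0 had a peak, and of 5 markers of other blood cells SPI1 had a peak in both libraries and MPO in ERG cells alone.

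The tRNA sequences shown next were read from RefSeq windows around gene starts (GRCh38.p14), within which they lie. Of the 443 records, 14 could be read whole and 4 in part in this way, and the choice is limited to them. They are shown to set genes with a peak in both libraries, in ERG cells alone and in neither side by side, and they include the histidine genes TRH-GTG1-9 and TRH-GTG1-3, which fall on different sides. They run 5′ to 3′ on the strand of the tRNA. Capitals mark a match to GTTCNANNC, the core of the B box. The match and the anticodon were used to find the strand, so that every sequence shown has the match by choice. Searched on both strands, the same letters occur in 2626 of 35116 windows of 300 bp around gene starts (7.48%). Genes with a peak in both libraries come first, here TRR-ACG2-1 (chr3:45688999-45689071, minus strand), TRG-CCC2-2 (chr16:636736-636806, minus strand), the last 63 of 82 bases of TRL-AAG2-4 (chr16:22297140-22297221, plus strand) and the first 72 of 74 bases of TRT-AGT1-3 (chr19:33177057-33177130, plus strand).
TRR-ACG2-1: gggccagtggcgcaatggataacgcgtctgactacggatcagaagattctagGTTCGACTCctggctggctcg
TRG-CCC2-2: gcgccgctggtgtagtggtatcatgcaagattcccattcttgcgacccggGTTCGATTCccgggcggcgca
TRL-AAG2-4: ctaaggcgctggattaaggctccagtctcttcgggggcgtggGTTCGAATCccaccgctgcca
TRT-AGT1-3: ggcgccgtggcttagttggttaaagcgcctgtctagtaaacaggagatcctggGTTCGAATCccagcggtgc

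Genes with a peak in ERG cells alone follow, with TRH-GTG1-9 (chr15:45201151-45201222, plus strand), TRF-GAA1-5 (chr13:94549650-94549722, minus strand), TRT-TGT6-1 (chr5:181191687-181191758, minus strand) and TRI-TAT2-2 (chr6:27020346-27020439, plus strand). TRI-TAT2-2 is an isoleucine tRNA gene of 94 bases, and genes of this family are known to hold an intron.
TRH-GTG1-9: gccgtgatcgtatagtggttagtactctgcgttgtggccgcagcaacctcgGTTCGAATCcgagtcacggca
TRF-GAA1-5: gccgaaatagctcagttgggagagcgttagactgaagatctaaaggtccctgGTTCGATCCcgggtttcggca
TRT-TGT6-1: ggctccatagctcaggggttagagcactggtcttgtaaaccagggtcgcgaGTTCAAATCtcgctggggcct
TRI-TAT2-2: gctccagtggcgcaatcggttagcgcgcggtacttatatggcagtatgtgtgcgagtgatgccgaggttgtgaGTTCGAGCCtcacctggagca

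Genes with a peak in neither library are TRH-GTG1-3 (chr1:148281365-148281436, plus strand), TRP-TGG3-2 (chr14:20684016-20684087, plus strand), TRP-TGG3-5 (chr16:3188094-3188165, plus strand) and TRA-AGC2-2 (chr6:28863685-28863756, minus strand).
TRH-GTG1-3: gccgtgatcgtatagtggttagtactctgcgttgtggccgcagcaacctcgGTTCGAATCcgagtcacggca
TRP-TGG3-2: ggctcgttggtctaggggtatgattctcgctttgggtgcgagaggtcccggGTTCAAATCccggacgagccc
TRP-TGG3-5: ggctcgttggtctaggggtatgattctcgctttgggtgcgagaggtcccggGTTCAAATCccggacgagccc
TRA-AGC2-2: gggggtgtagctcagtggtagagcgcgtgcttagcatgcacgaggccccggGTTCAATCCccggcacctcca

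TRH-GTG1-9, with 29 fragments at the summit of its ERG-library peak and no Vector-library peak, and TRH-GTG1-3, with no peak in either, are identical in 72 of 72 bases. The peak at TRH-GTG1-9 lay 0.043 kb from the start of the coding gene SHF and cannot be divided between SHF and the tRNA gene. TRP-TGG3-2 and TRP-TGG3-5 are also identical in 72 of 72 bases, and neither had a peak, while another copy, TRP-TGG3-3, had an ERG-library peak with 46 fragments. Copies of the same mature tRNA thus differed in whether a peak was called nearby.

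Of the 443 tRNA gene records, 131 (29.6%, 25.4 to 34.1%) had a peak within 1 kb in ERG cells and 71 (16.0%, 12.7 to 19.8%) in Vector cells. A peak overlapped the record itself at 49 (11.1%) in ERG cells and 24 (5.42%) in Vector cells. Both had a peak at 69 records, ERG cells alone at 62 (14.0%), Vector cells alone at 2 (0.451%) and neither at 310 (70.0%). Most tRNA genes thus had no H3K27ac peak nearby in either library, and most of those with a Vector-library peak had an ERG-library peak too. Among protein-coding genes, a peak within 1 kb of a gene end was found for 45.8% in ERG cells, for 30.5% in Vector cells and for 30.2% in both. It was found for 15.6% in ERG cells alone and for 0.354% in Vector cells alone. Of the 372 tRNA records without a Vector-library peak, 16.7% had one in ERG cells, beside 22.5% of protein-coding genes without a Vector-library peak. Over all records, the share with a peak in ERG cells alone was thus near that of protein-coding genes. Among records without a Vector-library peak it was lower, with an interval of 13.0 to 20.9% around the 16.7%. That interval treats records as independent, but 32 of 88 ERG-library peaks lay near several records. It thus understates the spread and cannot set 16.7% apart from 22.5%. Protein-coding genes were counted at either end, tRNA records over the whole record. The share over all records moved with the length of the list. With the ERG list limited to its 8940 peaks of highest score, the number of Vector-library peaks, 5.42% of tRNA records had a peak in ERG cells alone. With summit fragments and background of the ERG list divided by 1.44 instead, and peaks kept down to the lowest −log10 p-value of the Vector list, 18074 ERG-library peaks were left and the share was 13.8%.

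Other short genes of RefSeq, measured in the same way over the whole record, give a scale for these shares. Small nuclear RNA genes had a peak within 1 kb at 32.5% of 154 records in ERG cells and 18.8% in Vector cells. Records of microRNA genes, with a median length of 80 bp against 73 bp for tRNA records, had one at 10.2% of 1913 in ERG cells and 6.27% in Vector cells. Small nucleolar RNA genes, which mostly lie in introns of host genes, had one at 6.67% of 1199 in ERG cells and 3.42% in Vector cells. Ribosomal RNA genes, of 49 records, had one at 40.8% in ERG cells and 28.6% in Vector cells (16.6 to 43.3%). That interval overlaps the 12.7 to 19.8% of tRNA records in Vector cells. The 49 records include 17 near-identical 5S genes of a tandem array, which are not independent of each other. In each library the share for tRNA records lay near that of small nuclear RNA records, within its interval. It lay above those of microRNA and small nucleolar RNA records, with intervals that did not overlap. Neighbouring records can share a peak, so these intervals understate the spread.

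A tRNA gene may lie beside the start of a protein-coding gene, whose own promoter can carry the mark. A start within 1 kb was found for 42 tRNA records, and 32 of these (76.2%, 60.5 to 87.9%) had an ERG-library peak and 22 (52.4%) a Vector-library peak. Over all coding starts, 45.7% had an ERG-library peak within 1 kb, 31% a Vector-library peak, and 15% a peak in ERG cells alone. The other 401 records lay farther from coding starts, and 99 of them (24.7%, 20.5 to 29.2%) had an ERG-library peak and 49 (12.2%) a Vector-library peak. Leaving out records near starts of long non-coding RNA genes as well left 374 records, 91 with an ERG-library peak and 44 with a Vector-library peak. Most tRNA records with a peak were thus not beside a coding start.

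Counted by peak, a coding start lay within 1 kb at 26 of 88 in ERG cells (29.5%) and at 18 of 47 in Vector cells (38.3%), beside 41.9% of the whole ERG list and 58.2% of the whole Vector list. The starts include that of POLR3E, a subunit of Pol III itself, next to the leucine gene TRL-AAG2-4. TRX-CAT1-1, an initiator methionine gene, lies next to ILF2, which encodes an RNA-binding protein, and TRR-ACG1-3 next to PRMT5, an arginine methyltransferase that modifies histones and other proteins. Neither a start of a coding nor of a long non-coding RNA gene lay within 1 kb of 52 ERG-library peaks and 24 Vector-library peaks.

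Summits of the peaks lay outside the tRNA records. Since peaks were taken within 1 kb of a record, short distances follow from the rule. The peak overlapped a tRNA record at 39 of 88 in ERG cells (44.3%) and at 18 of 47 in Vector cells (38.3%). No summit lay inside a tRNA record in either library, which allows a share of up to 3.41% in ERG cells and 6.38% in Vector cells. Records are short, with a median of 73 bp, so the lack of summits inside them says little. The median distance from the summit to the edge of the nearest record was 330.5 bp in ERG cells (range 87 to 1824 bp) and 403 bp in Vector cells (40 to 1436 bp). At peaks without a coding start within 1 kb these medians were 302 bp in ERG cells and 264 bp in Vector cells.

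Position was also measured from the tRNA genes outward, with or without a peak nearby. This was done over the 377 records that lay farther than 1 kb from a coding start and outside a tandem cluster on chromosome 1. At their midpoint, 5.04% of records were covered by an ERG-library peak and 1.59% by a Vector-library peak. Coverage was highest 300 bp from the midpoint in both libraries, at 10.5% of positions in ERG cells and 3.05% in Vector cells. At 1 kb it was 4.11% in ERG cells and 1.19% in Vector cells, and at 3 kb it was 1.59% in ERG cells and 0.133% in Vector cells. Coverage was thus lower at the midpoint than some way from it, with both sides of each record pooled. At the 42 records near a coding start the highest coverage lay 450 bp from the midpoint, at 39.3% in ERG cells and 22.6% in Vector cells. In the tandem cluster, coverage in ERG cells at the midpoint, 45.8%, was as high as at any distance.

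**Figure D1:**
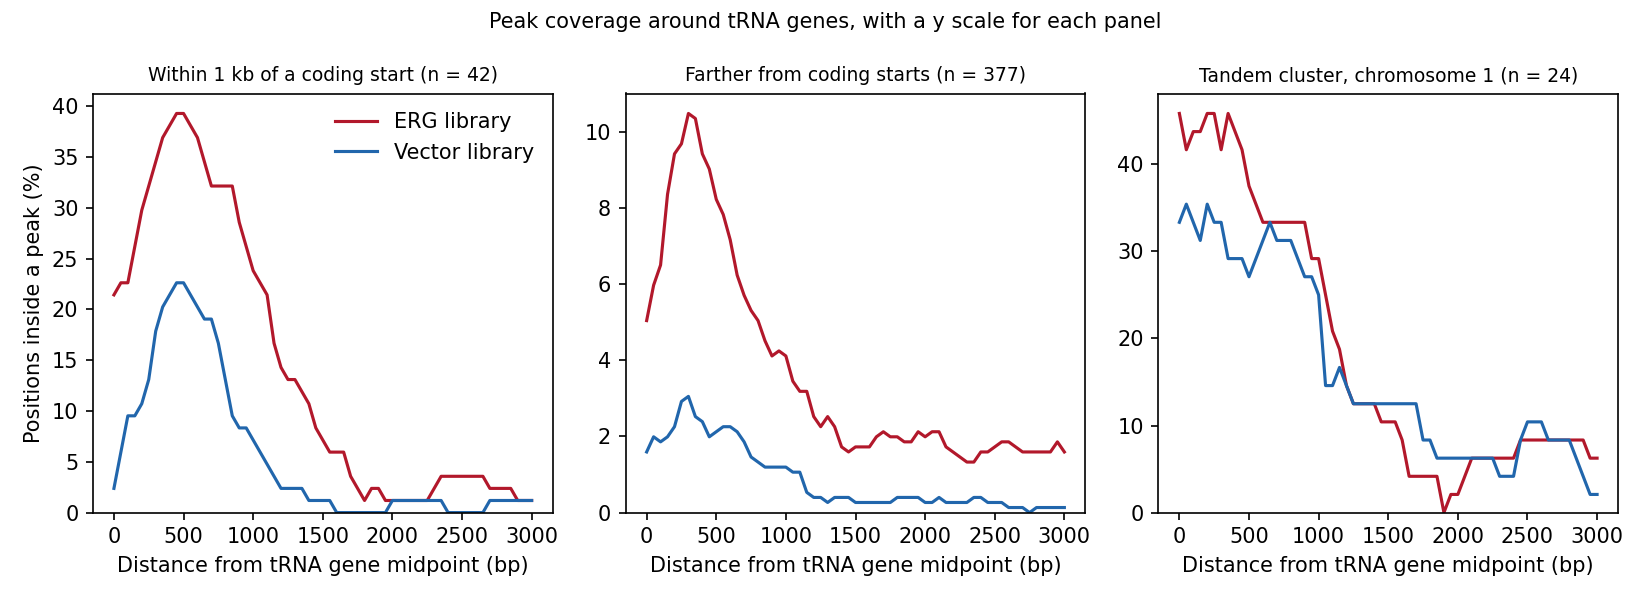
Share of positions covered by a peak (y axis, percent of record sides) at each distance from the midpoint of a tRNA record (x axis, bp), for ERG cells and Vector cells, in 3 panels of records with a y scale for each panel. Away from coding starts, coverage reaches 10.5% in ERG cells and 3.05% in Vector cells at 300 bp and is lower at the midpoint.

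The window of 1 kb lay in a gap of the distances. Of the peaks taken, 4 in ERG cells and 5 in Vector cells lay 500 to 1000 bp from the nearest record, the farthest at 900 bp and 711 bp in ERG cells and at 935 bp and 918 bp in Vector cells. The nearest peaks outside the window lay at 1223 bp in ERG cells and 1288 bp in Vector cells. Out to 2.5 kb there were 8 further peaks in ERG cells and 4 in Vector cells.

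Peaks at tRNA genes stood in the upper part of each list. Ranked by the authors' score, 64 of 88 (72.7%) were in the upper 50% of the ERG list and 34 of 47 (72.3%) in that of the Vector list. The top 10% of each list held 17 of them in ERG cells (19.3%) and 9 in Vector cells (19.1%). All ERG-library peaks at coding starts stood about as high, with 71.2% in the upper 50% and 17.4% in the top 10%. The tRNA-gene peaks without a coding start in ERG cells had 66.1% and 16.1%. In the Vector list, peaks at coding starts stood lower, with 59.0% and 10.9%, and tRNA-gene peaks without a coding start had 72.4% and 24.1%. The 24.1% is 7 of 29 peaks. Those at TRD-GTC2-2, TRD-GTC2-3, TRD-GTC2-4 and TRG-TCC2-5 among them belong to the tandem cluster on chromosome 1, where values of single repeats are uncertain. Peaks of this cluster were also among the 10 of 62 behind the 16.1% in ERG cells. The median width of all tRNA-gene peaks was 767.5 bp in ERG cells, against 645 bp over all ERG-library peaks. In Vector cells it was 524 bp, against 487 bp over all Vector-library peaks. The authors' fold had a median of 5.20 at tRNA genes in ERG cells, against 4.20 over all ERG-library peaks, and of 5.36 in Vector cells, against 4.61 over all Vector-library peaks. Peaks at tRNA genes without a coding start had a median fold of 5.13 in ERG cells, near the 5.04 of all ERG-library peaks at coding starts, but were narrower, with a median width of 660.5 bp against 859 bp.

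The tRNA-gene peak of highest score in both libraries lay at TRR-CCT4-1, an arginine gene beside the start of FMC1, which encodes a mitochondrial assembly factor. It had 176 fragments at the summit in ERG cells (chr7:139340576-139341762, rank 165 by score) and 83 in Vector cells (chr7:139340776-139341714, rank 158). The peak at TRL-AAG2-4, whose sequence is given above, had 116 fragments in ERG cells and 55 in Vector cells. These peaks cannot be divided between the tRNA gene and the coding gene beside it.

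Other strong peaks had no coding start within 1 kb. TRU-TCA1-1 encodes the tRNA for selenocysteine, which reads a stop codon in the mRNAs of selenoproteins. Its peak overlapped the gene and was narrow, with 79 fragments in ERG cells (chr19:45478559-45479019) and 43 in Vector cells (chr19:45478643-45478945). Its fold of 11.1 was the highest among tRNA-gene peaks of ERG cells, and its fold of 9.0 the highest in Vector cells. The threonine gene TRT-AGT1-3 had 87 fragments in ERG cells and 39 in Vector cells, with a start of a long non-coding RNA gene within 1 kb. TRV-CAC1-1, a valine gene, had 113 in ERG cells and 34 in Vector cells, in peaks at chr1:161398655-161400391 in ERG cells and chr1:161399047-161400185 in Vector cells. The peaks of highest score in ERG cells also held 4 repeats of the tandem cluster and the peak at TRX-CAT1-1 (94 fragments). TRX-CAT1-1 does lie beside a coding start, that of ILF2. The peaks of highest score in Vector cells also held 4 peaks of the tandem cluster and peaks at TRL-CAG1-7 (44 fragments), TRN-GTT26-1 (51) and TRY-GTA5-2 (42). The peak at TRY-GTA5-2 lay beside an end of the coding gene TRIM55. Those at TRL-CAG1-7 and TRN-GTT26-1 had a start of a long non-coding RNA gene within 1 kb.

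The amino acids carried by these tRNAs differed widely in the share of genes with a peak. Aspartate genes had an ERG-library peak at 11 of 13 records (84.6%, 54.6 to 98.1%) and a Vector-library peak at 6. Arginine genes had one at 14 of 26 in ERG cells and at 7 in Vector cells. Glutamate genes had one at 10 of 20 in ERG cells and at 7 in Vector cells. For leucine genes it was 15 of 32 in ERG cells and 10 in Vector cells, and for glycine genes 13 of 33 in ERG cells and 10 in Vector cells. Cysteine genes had none in either library at 29 records, which allows a share of up to 10.3%. Many of these records lie close together on chromosome 7. Alanine genes, the most numerous with 38 records, had 6 in ERG cells (15.8%) and 3 in Vector cells. Numbers per amino acid count neighbouring genes that share a peak, and copies in clusters are not independent of each other.

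Proline genes had a peak at 6 of 20 records in ERG cells and at 0 in Vector cells, which allows a share of up to 15%. Those of elongator methionine, used inside proteins, had one at 2 of 11 in ERG cells and at 0 in Vector cells, which allows up to 27.3%. The initiator methionine genes, used at the start of every protein, had one at 3 of 8 records in ERG cells and 2 in Vector cells. Of 22 kinds of tRNA, 21 had at least 1 gene with an ERG-library peak and 19 at least 1 with a Vector-library peak. Of 49 anticodons this held for 46 in ERG cells and 32 in Vector cells, and the cysteine GCA, isoleucine GAT and tyrosine ATA genes had none. All 9 leucine CAG genes had an ERG-library peak and 6 a Vector-library peak, and of 9 glycine TCC genes 8 had an ERG-library peak and 6 a Vector-library peak. The tandem cluster on chromosome 1 holds 5 of these leucine CAG genes and 5 of these glycine TCC genes, which share its peaks.

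**Figure D2:**
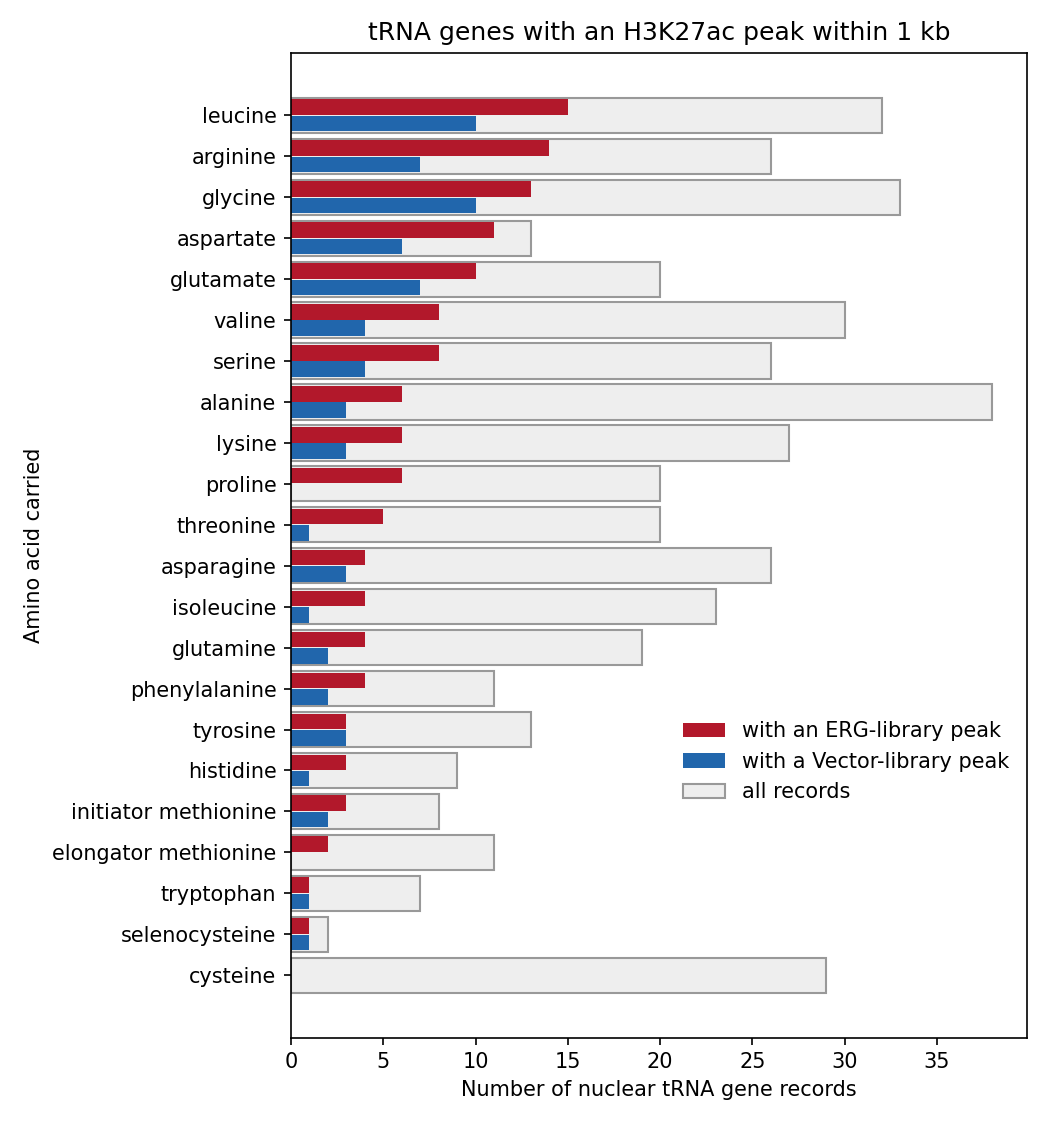
Number of nuclear tRNA gene records (x axis) by amino acid carried (y axis), with bars for all records, records with an ERG-library peak within 1 kb and records with a Vector-library peak within 1 kb. Aspartate stands out with 11 of 13 in ERG cells and 6 in Vector cells, and cysteine with 0 of 29 in both.

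Copies of the same mature tRNA often differed. Of 423 records with a family number, 222 belonged to 57 families of more than 1 copy. In 30 of these families some copies had a peak in either library and some did not, in 6 all copies had one and in 21 none had. The aspartate family TRD-GTC2 had a peak at 10 of 11 copies, of which 5 in the tandem cluster were in both libraries. The other 5, TRD-GTC2-6 on chromosome 6, TRD-GTC2-8, TRD-GTC2-9 and TRD-GTC2-10 on chromosome 12 and TRD-GTC2-11 on chromosome 17, had one in ERG cells alone, with 31, 24, 32, 31 and 56 fragments. Except at TRD-GTC2-8, each of these peaks was shared with another tRNA gene whose midpoint lay nearer the summit. Those genes were, in the same order, TRS-AGA2-2, TRF-GAA1-4, TRA-TGC4-1 and TRP-CGG1-3. The peak at TRD-GTC2-8 lay 618 bp from it and 0.184 kb from the start of the coding gene LTA4H. The histidine family TRH-GTG1 had a peak at 3 of 9 copies and the initiator methionine family TRX-CAT1 at 3 of 8. TRL-CAG1 (7 of 7) and TRG-TCC2 (6 of 6) had one at every copy, but TRL-CAG1-1 to TRL-CAG1-5 and TRG-TCC2-2 to TRG-TCC2-5 stand in the tandem cluster.

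Position on the chromosome went with large differences. All 7 records on chromosome 19 had an ERG-library peak and 6 a Vector-library peak, and on chromosome 12 this held for 8 of 9 in ERG cells and for 3 in Vector cells. On chromosome 17, 13 of 33 had an ERG-library peak and 4 a Vector-library peak. Chromosome 6 holds the largest group of human tRNA genes, next to the histone genes, and only 20 of its 155 records had an ERG-library peak and 6 a Vector-library peak. Between 26 and 29 Mb there, 18 of 144 records (12.5%) had an ERG-library peak and 4 a Vector-library peak, with all 4 between 26 and 27 Mb. Chromosome 1 had 37 of 98 in ERG cells and 32 in Vector cells. On chromosome 7, 1 of 22 records had a peak, in both libraries, and on chromosome 14, 2 of 19 had one in ERG cells and 0 in Vector cells, which allows a share of up to 15.8%. Outside chromosomes 1 and 6, 38.9% of 190 records had an ERG-library peak.

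**Figure D3:**
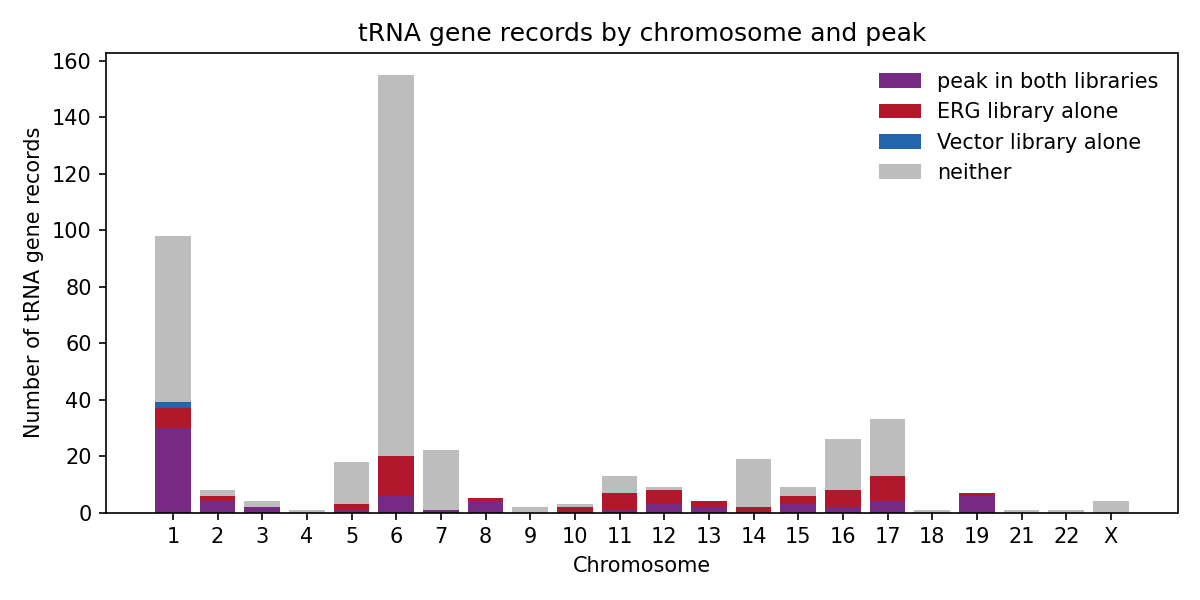
Number of tRNA gene records (axis of counts) on each chromosome, divided into those with a peak in both libraries, in ERG cells alone, in Vector cells alone and in neither. Chromosome 6 has 135 of 155 records with no peak, while all 7 on chromosome 19 have an ERG-library peak.

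Joined where at most 10 kb apart, the records formed 226 clusters. An ERG-library peak lay at 76 of them, a Vector-library peak at 42 and both at 40. Covered length within 1 kb of the records was longer in ERG cells at 75 clusters and longer in Vector cells at 3. The whole ERG list also covered more, 15 Mb against 5.30 Mb of the Vector list. Of 27 clusters with 4 or more genes, 11 had an ERG-library peak, 5 a Vector-library peak and 16 neither. Acetylation was not limited to clusters, since 44 of 142 isolated records had an ERG-library peak and 27 a Vector-library peak.

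Several clusters were covered in ERG cells and hardly or not in Vector cells. The cluster at chr6:26532917-26538126, which holds TRV-CAC1-6 beside HMGN4, a gene for a nucleosome-binding protein, was covered over 2212 bp in ERG cells and 0 bp in Vector cells. A cluster of 14 records at chr16:3150674-3192060 was covered over 1884 bp in ERG cells at 3 of its records, and over 0 bp in Vector cells. At chr1:146035692-146039473, covered length was 1951 bp in ERG cells and 428 bp in Vector cells, and at chr11:59550629-59566452, with 8 records, 1355 bp in ERG cells and 401 bp in Vector cells. The other clusters with the longest covered length in ERG cells were those of TRV-CAC1-1 (1692 bp in ERG cells, 1139 bp in Vector cells), TRE-TTC1-2 (1556 bp in ERG cells, 740 bp in Vector cells), TRS-AGA2-5 (1551 bp in ERG cells, 779 bp in Vector cells), TRD-GTC1-1 with TRW-CCA4-1 (1511 bp in ERG cells, 708 bp in Vector cells) and TRI-TAT2-1 (1491 bp in ERG cells, 773 bp in Vector cells). Long covered length in Vector cells was also found at TRY-GTA2-1 with TRA-AGC8-1 (1241 bp in ERG cells, 871 bp in Vector cells), TRR-CCT4-1 (1187 bp in ERG cells, 939 bp in Vector cells), TRQ-CTG1-4 (988 bp in ERG cells, 934 bp in Vector cells), TRL-AAG2-4 (844 bp in ERG cells, 781 bp in Vector cells) and the cluster of TRR-CCT1-1 on chromosome 17 (1015 bp in ERG cells, 774 bp in Vector cells). ERG cells had the longer covered length at each of these. That follows in part from the choice of clusters by covered length and from the longer coverage of the whole ERG list. At TRT-AGT1-3 the order was the opposite, with 488 bp covered in ERG cells and 819 bp in Vector cells.

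The cluster with the most records and the longest covered length, 6018 bp in ERG cells and 5338 bp in Vector cells, was a tandem cluster at chr1:161440171-161480636, with 24 records in 40.5 kb. It repeats a unit of glycine TCC, aspartate, leucine CAG, glycine GCC and glutamate genes, and its TRD-GTC2 copies start 7381 to 7418 bp apart. A peak lay within 1 kb of 19 of the 24 records in both libraries. The 5 without one were the glycine GCC genes, TRG-GCC1-1 to TRG-GCC1-4 and TRG-GCC4-1, whose nearest peak lay 1898 to 10092 bp away in ERG cells and 1576 to 8513 bp away in Vector cells. The peaks thus lay near the other genes of the repeats and left the glycine GCC genes out.

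The 5 ERG-library peaks of this cluster had 67, 153, 137, 148 and 153 fragments, and the matching Vector-library peaks 40, 90, 84, 79 and 74. Their ratios, divided by the relative depth, lay between 1.13 and 1.43. A sixth peak, of 43 fragments, was found in Vector cells alone at TRL-CAG1-5 (chr1:161470926-161472052). Local background was also high here, at 12 to 21.7 fragments in ERG cells and 8.65 to 16.5 in Vector cells. The repeats are near-identical copies, and the sources used here do not say how reads that match several copies were placed, so values of single repeats are uncertain.

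**Figure D4:**
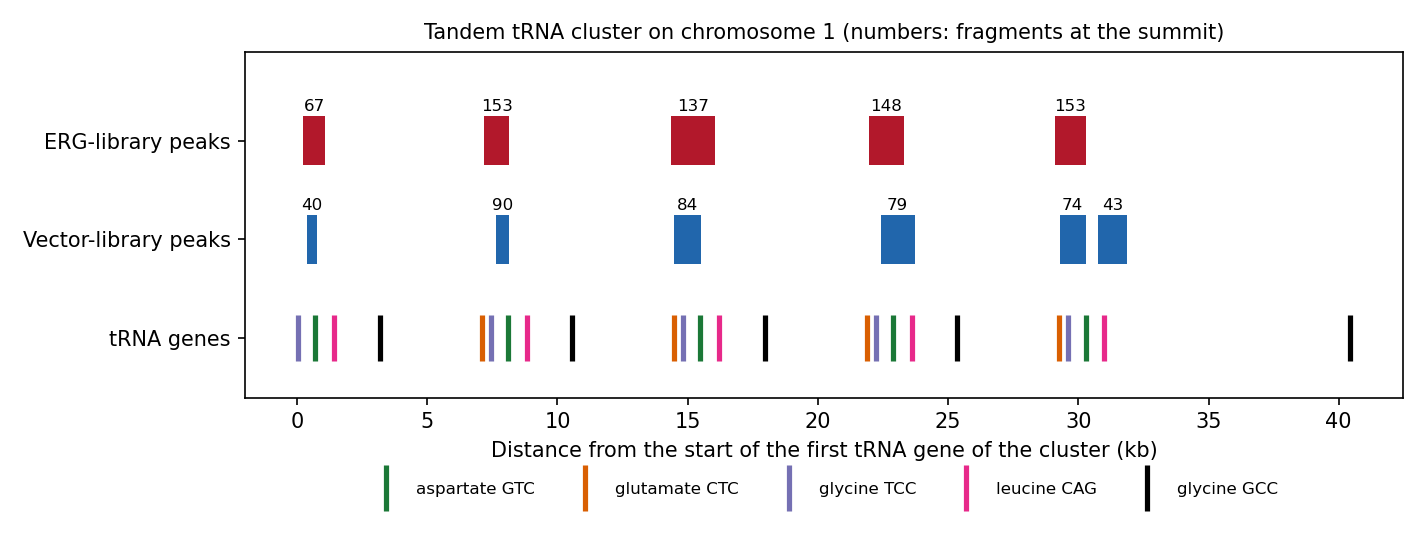
Peaks of ERG cells and Vector cells along the tandem cluster on chromosome 1 (x axis, distance in kb from the start of the first record), with the tRNA genes marked by kind. Numbers above the peaks are fragments at the summit, 67 to 153 in ERG cells and 40 to 90 in Vector cells, and the 5 glycine GCC genes lie outside the peaks.

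Peaks of the pair of libraries counted as shared if they overlapped by 1 bp or more. Of 88 ERG-library peaks at tRNA genes, 44 (50%, 39.1 to 60.9%) had no Vector-library peak, beside 58.4% of all ERG-library peaks. Of 47 Vector-library peaks, 3 (6.38%, 1.34 to 17.5%) had no ERG-library peak, beside 8.89% of all Vector-library peaks. Both shares were near those of the whole lists. The share of ERG-library peaks that were shared went with their strength. It was 2 of 14 at 20 to 30 fragments (18.6% of all peaks of that strength), 9 of 25 at 30 to 50 (36.0%, beside 37.1%), 23 of 28 at 50 to 100 (82.1%, 63.1 to 93.9%, beside 69.9%) and 9 of 10 at 100 or more (90.0%, beside 93.1%). Vector-library peaks were thus missing most often beside weak ERG-library peaks, and a missing one means only that no peak was called.

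Among ERG-library peaks without a coding start within 1 kb, 36 of 62 at tRNA genes (58.1%, 44.8 to 70.5%) had no Vector-library peak, beside 73.5% of all 11022 such peaks. With a coding start it was 8 of 26 (30.8%) beside 37.3%. By score, the highest ERG-library peak with no Vector-library peak was at TRI-TAT1-1 beside PLEKHG2, with 113 fragments over a local background of 33.5. It was followed by TRP-CGG1-3 on chromosome 17 (chr17:8222849-8224244), with 56 fragments over a background of 9.59, and TRR-ACG1-3 with 46 over 7.21. The others among the 10 of highest score were at TRM-CAT1-1 (57 fragments), TRF-GAA1-5 (38), TRI-TAT2-2 (30), TRV-CAC1-6 (54), TRP-TGG3-3 (46), TRR-CCG2-1 (25) and TRP-CGG1-1 (30). Of these 10 peaks, 3 were nearest to proline genes. Counted by record, proline genes made up 6 of the 62 with a peak in ERG cells alone. Peaks and records are unlike units, and proline was picked out with its values known, so no enrichment is read from this. The peak at TRP-CGG1-3 lay within 1 kb of 2 records and is the one given above for TRD-GTC2-11.

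Besides TRL-CAG1-5, the peaks found in Vector cells alone were weak. The peak nearest TRL-CAA6-1 had 14 fragments and lay 935 bp from the gene, near the edge of the window. The peak at TRG-CCC5-1 (chr1:16727802-16728127) had 17 fragments and a score of 19.

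At the 44 ERG-library peaks that had a Vector-library partner, the summit fragments were 2.10 times higher in ERG cells at the median, which gives 1.46 after division by the relative depth (range 1.03 to 3.15). The median of all 7901 shared peaks was 1.43, so the tRNA-gene peaks lay at the general level of these libraries. A scaled ratio above 1.5 was found at 18 of 44 (40.9%), beside 43.8% of all shared peaks. A scaled ratio below 1/1.5 was found at 0 of 44, which allows a share of up to 6.82%, beside 1.94% of all shared peaks. All 44 lay above 1, beside 85.7% of all shared peaks, and at 17 the counting interval did too. These directions rest on the scaling. Divided by the median ratio of all shared peaks (2.07) in place of the relative depth, the tRNA-gene peaks had a median of 1.02, and 6.82% lay above 1.5.

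The highest scaled ratio was at TRQ-CTG1-4, a glutamine gene beside a coding start (RAB11A, a regulator of vesicle recycling). Its peaks had 109 fragments in ERG cells (chr15:65869146-65871018) and 24 in Vector cells (chr15:65869200-65870261), a scaled ratio of 3.15 (2.01 to 5.12). It was followed by TRG-CCC2-1 beside TIA1, with 96 fragments in ERG cells and 28 in Vector cells (2.37), and TRV-CAC1-1, with 113 in ERG cells and 34 in Vector cells (2.30). TRA-AGC8-1 had 67 fragments in ERG cells and 22 in Vector cells (2.11), and TRS-AGA2-5 had 77 in ERG cells and 26 in Vector cells (2.05). The peaks at TRA-AGC8-1 lay beside the start of AGBL5 and those at TRS-AGA2-5 beside an end of CFAP418. Of these highest ratios, only that at TRV-CAC1-1 had no coding start within 1 kb. The lowest was at TRR-ACG2-1 beside SACM1L, with 37 fragments in ERG cells and 25 in Vector cells (1.03, 0.601 to 1.78). Next was TRG-TCC1-1 beside DPP9, with 47 in ERG cells and 31 in Vector cells (1.05). They were followed by TRG-TCC2-3, with 137 in ERG cells and 84 in Vector cells (1.13), TRS-CGA4-1, with 46 in ERG cells and 28 in Vector cells (1.14), and TRN-GTT2-4, with 28 in ERG cells and 17 in Vector cells (1.14). Intervals of the lowest 5 all include 1, so that the order among them is within counting error.

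**Figure D5:**
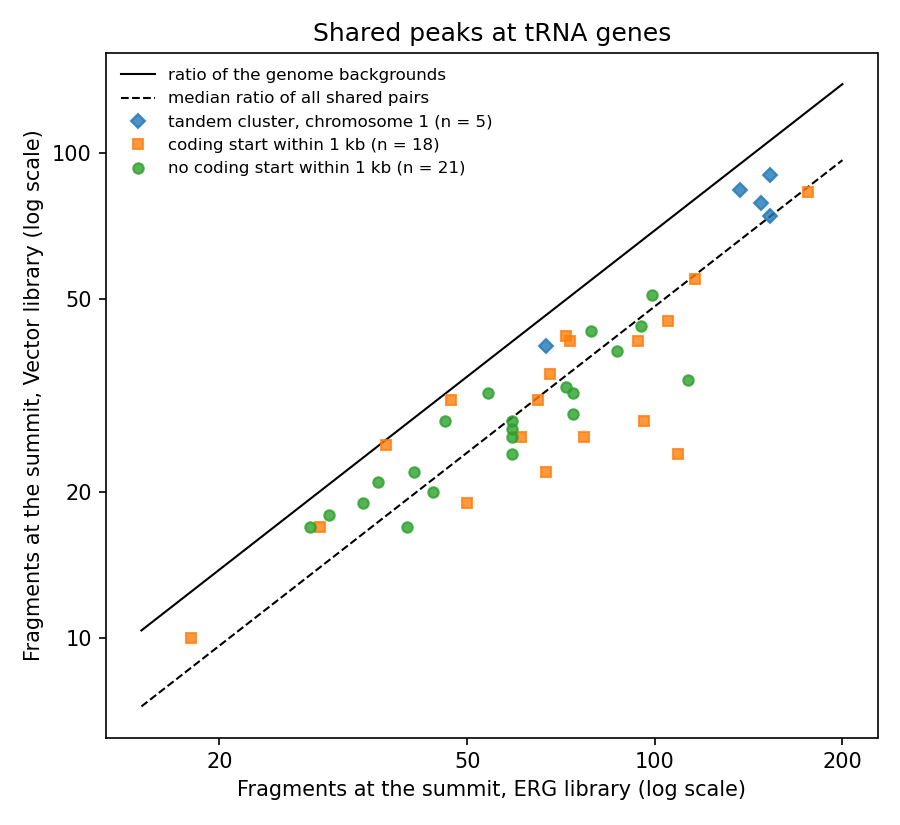
Fragments at the summit of shared tRNA-gene peaks in ERG cells (x axis, log scale) and Vector cells (y axis, log scale), each point a pair, with lines at the ratio of genome backgrounds (1.44) and at the median ratio of all shared peaks (2.07). All 44 points lie below the background line, and they scatter around the line of all shared peaks.

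Other genes read by Pol III were counted by a peak within 1 kb of a gene end. Of 21 such genes besides tRNA and 5S rRNA genes, 6 had a peak in both libraries, 7 in ERG cells only and 8 in neither, beside 30.2% in both and 15.6% in ERG cells alone over all protein-coding genes. RMRP, the RNA of a ribonuclease that takes part in ribosomal RNA processing, had 51 fragments in ERG cells and 30 in Vector cells. RN7SL1, an RNA of the signal recognition particle, had 86 in ERG cells and 33 in Vector cells. RNU6ATAC (123 fragments), a spliceosomal RNA, RNY1 (75), a Y RNA, and RN7SK (67), a regulator of transcription elongation, had one in ERG cells alone. The 3 other vault RNA genes (VTRNA1-2, VTRNA1-3 and VTRNA2-1) had none in either, and VTRNA1-1 had 13 fragments in ERG cells. Of 17 genes for 5S ribosomal RNA, which stand in a tandem array, 5 had a peak in both libraries, 2 in ERG cells alone, 1 (RNA5S14) in Vector cells alone and 9 in neither. The order of the libraries turned with the list length: with the ERG list limited as above, 1 of the 17 had a peak in ERG cells and 6 in Vector cells, against 7 in ERG cells and 6 in Vector cells in the full lists. These copies are near-identical too, so their values are uncertain in the same way.

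Genes of the Pol III machinery are transcribed by RNA polymerase II. Of 36, 17 had a peak in both libraries, 12 in ERG cells alone and 7 in neither. Among the limited ERG list's peaks, 19 of 36 had one. POLR3E had 116 fragments in ERG cells and 55 in Vector cells, in the same peak as TRL-AAG2-4. MAF1, the repressor of Pol III, had 146 in ERG cells and 79 in Vector cells. GTF3C6, a subunit of TFIIIC, had 91 in ERG cells and 39 in Vector cells. POLR3G and POLR3GL, alternative subunits of Pol III, had a peak in ERG cells alone, with 20 and 93 fragments. BDP1 and BRF1, subunits of TFIIIB, and POLR3A, the largest subunit of Pol III, had no peak at a gene end in either library.

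Among 20 cytosolic aminoacyl-tRNA synthetases, which load tRNAs with amino acids, 13 had a peak in both libraries, 6 in ERG cells alone (FARSA, FARSB, HARS1, IARS1, SARS1 and VARS1) and RARS1 in neither. ERG cells thus held a peak at 19 of 20 and Vector cells at 13 of 20. Among 19 genes of tRNA processing, splicing and export, 6 had a peak in both libraries, 7 in ERG cells alone, 5 in neither, and RPP30, a subunit of ribonuclease P, in Vector cells alone with 11 fragments. XPOT, the exporter of tRNA from the nucleus, had 189 fragments in ERG cells and 83 in Vector cells. The share of peaks in ERG cells alone was 15.6% over all protein-coding genes, beside 12 of 36 Pol III machinery genes, 6 of 20 synthetases and 7 of 19 processing genes. Pol III machinery genes and synthetases had a peak more often than protein-coding genes in each library. For processing genes the Vector-library share, 7 of 19, was near that of protein-coding genes. In ERG cells 80.6%, 95% and 68.4% had one, beside 45.8% of protein-coding genes, and in Vector cells 47.2%, 65% and 36.8%, beside 30.5%. With the ERG list limited as above, 17 of 20 synthetases and 9 of 19 processing genes had an ERG-library peak. The share of protein-coding genes with the limited list was not measured, so these counts have no scale beside them.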

How the data were processed

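The deposited files are 1 peak list per library, called by the authors per library and not pooled. Alignment and calling tools, per the submitters' processing notes, are Bowtie2, MACS2 and deepTools, with hg38 as the build and no version given. Use of an input library and the treatment of reads that match several places are not given in the sources used here. Each list holds the authors' score, fold (a ratio of summit to local background), −log10 p-value and −log10 q-value. The smallest −log10 q-value deposited was 1.31 for ERG cells and 1.32 for Vector cells. Per the labels' protocols, chromatin fixed with 1% formaldehyde was cut with micrococcal nuclease, and 10 µg was used per pull-down.

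Summit fragments were recovered from the deposited fold, (fragments + 1)/(background + 1), and the Poisson −log10 p-value. On simulated data, 100% of 992 ERG-library and 996 Vector-library peaks were recovered, while 3.02% and 1.10% would come out whole by chance. The test used the same formulas. Read totals were not analysed here. Genes came from RefSeq tables (GRCh38.p14, the coordinates of hg38), and on chromosome 8 both gene ends stood in for starts. Named genes are the 10 clusters of longest covered length and 10 peaks of highest score per library, the peaks of 1 library alone (10 of highest score at most) and the 5 highest and lowest scaled ratios. Other genes named came from the lists or were chosen with their values known. Members and lists were chosen with earlier results of these data known. No test between groups was made. Alternatives changed the window, list length, scaling, fold, summit distance and records left out. Python 3.11.15, pandas 2.3.3, scipy 1.17.1 and matplotlib 3.10.9 were used.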

Additional observations from a re-analysis of the deposited data

Results flagged for a closer look

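The mitochondrial genome, which the rule leaves out, also held a peak near a tRNA gene in each library, outside the main measurement. It lay within 1 kb of 1 of the 22 mitochondrial tRNA genes, TRNE for glutamate. It had 70 fragments at the summit in ERG cells, over a local background of 32.2, and 32 in Vector cells, over 13.3. The authors' fold was 2.14 in ERG cells and 2.31 in Vector cells. Mitochondrial DNA carries no histones and is present in many copies per cell, and the source of these peaks was not tested.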

How the results depend on the processing

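No paired analysis was possible because each group has 1 library. Of the values recomputed, 71 stayed within their interval or count limit and 25 moved. Counting only peaks that overlap a record, 11.1% of records had an ERG-library peak, 5.42% a Vector-library peak and 6.09% one in ERG cells alone, and 35.9% of ERG-library peaks were unshared. With the upper 50% of each list by score, 22.6% had an ERG-library peak and 9.93% one in ERG cells alone. With the ERG list limited to its 8940 peaks of highest score, these were 20.5% and 5.42%, 29.3% of ERG-library peaks were unshared, and peaks lay at 1 of 17 5S rRNA genes, below the 6 of Vector cells, and at 19 of 36 Pol III machinery genes. Thinned to the Vector background, the ERG list gave 13.8% in ERG cells alone and 49.4% unshared. Without records near coding gene ends, 23.5% had an ERG-library peak and 11.9% a Vector-library peak. Without chromosomes 1 and 6, 38.9% had an ERG-library peak, 21.6% one in ERG cells alone and 0 one in Vector cells alone, and 0 Vector-library peaks were unshared. Alternatives chosen after seeing the data left out the tandem cluster (12.4% with a Vector-library peak) or records near coding starts (24.7% with an ERG-library peak, 12.2% with a Vector-library peak). Scaled by the median ratio of all shared peaks, the median ratio was 1.02 and 6.82% lay above 1.5; this scaling lowers every ratio. With summits at most 150 bp apart the median was 1.35, and 11.4% lay above a fold of 2. A window of 2.5 kb took in 10 5S rRNA genes in Vector cells. The cause of each shift was not tested, beyond the smaller or larger sets counted. Depth limits what a missing peak means in Vector cells, the shallower library by a factor of 1.44 in background.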
